A study of Oryza sativa Japonica Group with 4 samples.

Results

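The genes described here are 10 rice WRKY transcription factors of pathogen defence, OsWRKY13, OsWRKY24, OsWRKY28, OsWRKY30, OsWRKY45, OsWRKY53, OsWRKY62, OsWRKY70, OsWRKY71 and OsWRKY76. They were taken by locus identifier from a list drawn up with earlier results of these data known, and all 10 were present among the 28491 genes listed in at least 1 library. RNA sequencing was done on shoots of soil-grown japonica rice (Oryza sativa) harvested at the 4-leaf stage, after growth under 14 h of daily light without a stress treatment. One group is the DongJin wild type (DJ, 2 libraries). The other carries the label modd mutant and the title modd2 (2 libraries), comes from the POSTECH rice mutant library, and shares the DongJin background only as far as DongJin is named as its wild type. The sources used here do not give the kind or site of the mutation, the number of independent lines or any pooling of plants. Since nothing says that replicate libraries are from different plants, p-values reflect the spread between these libraries alone, and that spread may be technical.

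WRKY proteins bind the W box, a short promoter element with a TGAC core, through a domain named after its invariant WRKY residues. In rice many of them are switched on by chitin, by blast fungus or by bacterial blight, partly through mitogen-activated protein kinases, and several act on each other's promoters. OsWRKY45 carries much of the salicylic acid branch of rice immunity. OsWRKY28, OsWRKY62, OsWRKY71 and OsWRKY76 form the small group IIa, whose members have mostly been described as repressors of basal defence. OsWRKY24, OsWRKY30, OsWRKY53 and OsWRKY70 belong to group I, whose proteins carry a WRKY domain near each end.

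The libraries held from 5334814 to 5393972 expected reads, RSEM's estimates of the reads that belong to a gene, with reads shared by similar genes split between them. MODD (LOC_Os03g11550), the gene named in the series title, was at 36.9 and 46.6 FPKM (fragments per kilobase of transcript, scaled to sequencing depth) in the modd2 libraries and at 20.9 and 21.3 FPKM in DJ. It was thus higher in the libraries labelled mutant (edgeR adjusted p = 0.0272), and every direction below is stated for the libraries as labelled modd2. On the first principal component, with 60.2% of the variance, the libraries labelled modd2 lay at -31.4 and -22.3. DJ replicate 1 lay at 9.38 and DJ replicate 2 at 44.3. The component thus set the groups apart and also the 2 DJ libraries from each other, with DJ replicate 2 at one end. Of 12 light-harvesting and Rubisco small-subunit loci, markers of green leaf, 11 were listed, and their summed level was from 23950 to 31108 FPKM. Of 5 root markers only LSI1 and OsHKT2;1 were listed, and LSI2, OsNRT2.1 and OsYSL15 were at 0.

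None of the 10 WRKY genes passed edgeR's quasi-likelihood test between the libraries labelled modd2 and DJ at an adjusted p under 0.05. Of all 19365 genes tested, 0.837% passed. All 10 genes passed the filter on low counts. Of these, 9 had a log2 fold change below 0, which means a lower level in the libraries labelled modd2. Over all tested genes 49.4% were below 0. The median over the 10 was -1.28, against a median of 0.00 over all tested genes. For 7 the unadjusted edgeR p was under 0.05, all of them lower, while 8.39% of all tested genes were lower at that level. In 8 of the 10 both libraries labelled modd2 lay below both DJ libraries, as they did for 25.6% of all tested genes. DESeq2 called 2 of the genes lower, OsWRKY71 and OsWRKY76, beside 1.58% of the genes it adjusted, and its independent filtering left OsWRKY28 and OsWRKY70 without an adjusted p. The non-robust edgeR fit called the same pair, with 0.47% of tested genes lower, and edgeR without a count filter called OsWRKY28 lower, with 1.32%. Finally, limma on log2(FPKM + 1) called none of the 10, and 0 of all 19365 genes tested. Its unadjusted p was under 0.05 for 7 of the 10 and for 3093 of the 19365. The plot of fold changes sets the genes against the central 90% of all tested genes.

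**Figure D1:**
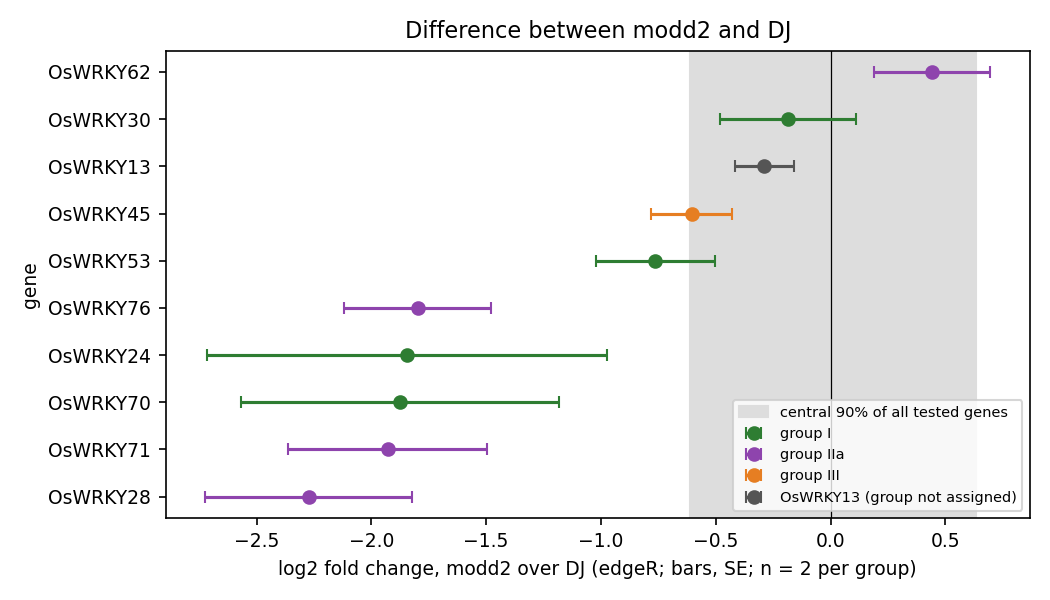
Log2 fold change between the libraries labelled modd2 and DJ for each of the 10 WRKY genes, with the SE from edgeR (n = 2 per group). Colours mark the WRKY groups and the grey band spans the central 90% of all tested genes, from -0.61 to 0.63. OsWRKY28, OsWRKY71, OsWRKY70, OsWRKY24 and OsWRKY76 lie from -2.27 to -1.80, and OsWRKY62 is the one value above 0.

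Together the 10 genes took 0.0606 and 0.0715% of all reads in the libraries labelled modd2 and 0.104 and 0.169% in DJ. Their levels, which FPKM makes comparable between genes of different length, spanned a wide range, and the plot of levels shows that their order was not the same in both groups. In DJ the mean was highest for OsWRKY71 at 316.5 ± 132.4 FPKM (SD, n = 2), followed by OsWRKY53 at 172.6 ± 52.8 FPKM. OsWRKY45, OsWRKY13 and OsWRKY76 came next at 91.8, 77.3 and 74.8 FPKM, and neighbours in that trio were not separated by their libraries. OsWRKY24, OsWRKY62, OsWRKY28 and OsWRKY30 followed at 14.8, 11.7, 7.18 and 7.03 FPKM, with the libraries of OsWRKY24 and OsWRKY62 and those of OsWRKY28 and OsWRKY30 overlapping. OsWRKY70 was lowest at 3.49 ± 2.74 FPKM, and its libraries overlapped those of OsWRKY30. In the libraries labelled modd2, OsWRKY53 came first at 105 ± 16.7 FPKM (SD, n = 2), with OsWRKY71 at 87.5 ± 22.2 FPKM overlapping it. OsWRKY13 and OsWRKY45 also overlapped there, at 65.2 and 62.4 FPKM, and no other neighbours in that order did.

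**Figure D2:**
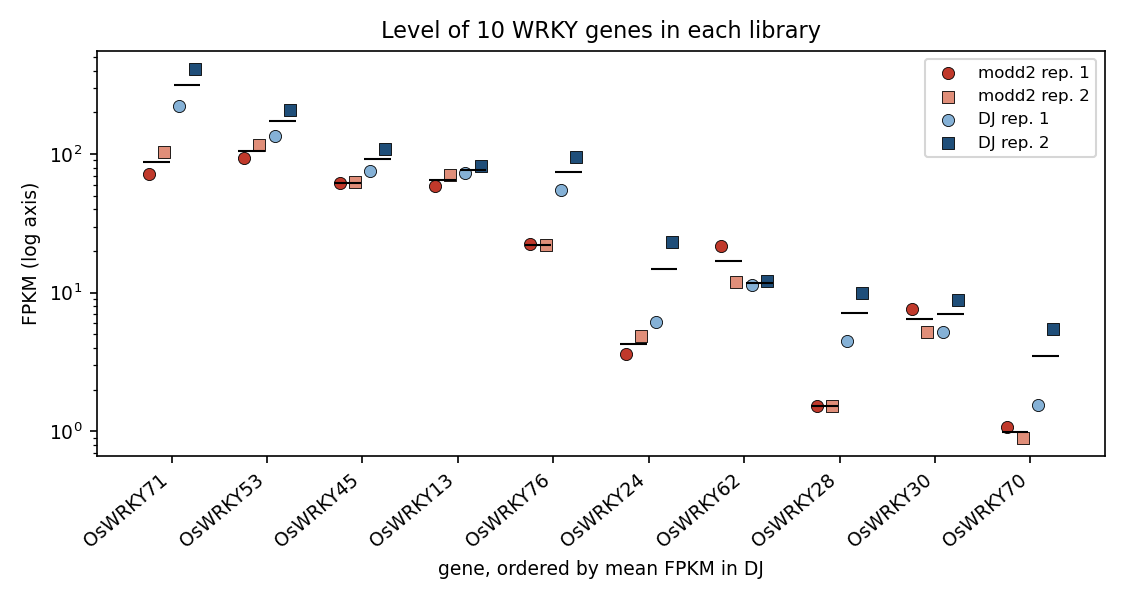
FPKM (log axis) of the 10 WRKY genes in each of the 4 libraries, ordered by their mean in DJ, with a bar at the mean of each group. DJ replicate 2 (dark squares) is the highest library for every gene but OsWRKY62. By counts scaled to library size it is the highest for 31.7% of all tested genes. The points of OsWRKY30 and OsWRKY62 overlap between the groups.

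Among the group IIa genes, OsWRKY28, OsWRKY71 and OsWRKY76 had log2 fold changes from -2.27 to -1.80, and OsWRKY62 had one above 0. OsWRKY71 (LOC_Os02g08440), known in rice as a W-box repressor of gibberellin-induced genes in the aleurone and as a defence-responsive gene, was at 71.8 and 103.2 FPKM in the libraries labelled modd2 and at 222.9 and 410.1 FPKM in DJ. These came from 607 and 907 reads against 1974 and 3628. The groups did not overlap, and the log2 fold change was -1.93 ± 0.435 (SE), 3.81-fold lower, with an edgeR adjusted p of 0.183. DJ replicate 2 was 1.84 times as high as DJ replicate 1 in FPKM.

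OsWRKY76 (LOC_Os09g25060), which represses part of the defence response to blast fungus and is also linked to cold tolerance, was at 22.6 and 22.0 FPKM in the libraries labelled modd2 and at 54.9 and 94.8 FPKM in DJ. The libraries labelled modd2 were nearly equal, from 200 and 196 reads, and both DJ libraries lay above them. Its log2 fold change was -1.80 ± 0.321 (SE), with an edgeR adjusted p of 0.105. OsWRKY28 (LOC_Os06g44010), a negative regulator of innate immunity to blast, was at 1.53 and 1.52 FPKM against 4.47 and 9.90 FPKM in DJ. It had 13 reads in each library labelled modd2 and 38 and 85 reads in DJ, and its log2 difference of -2.27 ± 0.451 (SE) was the lowest of the 10 genes, with an edgeR adjusted p of 0.0658.

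OsWRKY62 (LOC_Os09g25070) is a negative regulator of bacterial blight resistance whose protein binds the receptor kinase XA21. Its locus neighbours that of OsWRKY76 on chromosome 9, with 0 genes between them in the reference gene table (assembly ASM3414082v1). It was at 21.6 and 12.1 FPKM in the libraries labelled modd2 and at 11.3 and 12.2 FPKM in DJ. Replicate 1 labelled modd2 was high and the other 3 libraries were alike, so the groups overlapped, and the log2 fold change was 0.44 ± 0.255 (SE, edgeR adjusted p = 0.424). Without that library it was -0.03. Within each library, the level of OsWRKY62 relative to that of OsWRKY76 was 0.96 and 0.548 in the libraries labelled modd2 and 0.205 and 0.129 in DJ. These ratios did not overlap between the groups, and an exact permutation test of 2 libraries against 2 cannot give a p below 0.333 when both directions count.

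Among the group I genes the scarce OsWRKY24 and OsWRKY70 had larger and less certain differences than the abundant OsWRKY53. OsWRKY53 (LOC_Os05g27730), which is induced by chitin, raises blast resistance when overexpressed and is a target of mitogen-activated protein kinases, was at 93.2 and 116.9 FPKM in the libraries labelled modd2 and at 135.2 and 209.8 FPKM in DJ. The groups did not overlap, and the log2 fold change was -0.76 ± 0.258 (SE), with an edgeR adjusted p of 0.243. It was the one gene of the 10 with fractional counts, so some of its reads were shared with a similar gene.

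OsWRKY24 (LOC_Os01g61080), a close relative of OsWRKY53 that in aleurone cells represses both gibberellin and abscisic acid responses, was at 3.63 and 4.90 FPKM in the libraries labelled modd2 and at 6.11 and 23.4 FPKM in DJ. Its reads were 42 and 57 against 71 and 274, so that DJ replicate 2 alone was far from the other 3 libraries. The log2 fold change was -1.84 ± 0.871 (SE, edgeR adjusted p = 0.425), and it was -0.53 without DJ replicate 2. OsWRKY70 (LOC_Os05g39720), described in the trade-off between herbivore defence and growth, showed the same layout at 1.07 and 0.90 FPKM against 1.55 and 5.43 FPKM. Its reads were 13 and 11 against 19 and 67, and the log2 difference of -1.87 ± 0.692 (SE, edgeR adjusted p = 0.266) became -0.67 without DJ replicate 2.

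OsWRKY30 (LOC_Os08g38990), whose overexpression raises resistance to blast and sheath blight and tolerance of drought, was at 7.62 and 5.23 FPKM in the libraries labelled modd2 and at 5.24 and 8.82 FPKM in DJ. The groups overlapped. Its log2 fold change was -0.18 ± 0.295 (SE, edgeR adjusted p = 0.798), and the sign turned without replicate 2 labelled modd2 (0.05) and without DJ replicate 2 (0.29).

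OsWRKY45 and OsWRKY13 were abundant and differed the least among the genes whose groups did not overlap. OsWRKY45 (LOC_Os05g25770), of group III, is induced by salicylic acid and by the plant activator benzothiadiazole and is needed for the resistance that this activator gives. It was at 61.8 and 62.9 FPKM in the libraries labelled modd2 and at 75.7 and 108 FPKM in DJ. Neither library labelled modd2 reached the lower DJ library, and the log2 fold change was -0.61 ± 0.178 (SE, edgeR adjusted p = 0.156). OsWRKY13 (LOC_Os01g54600), described as an activator of salicylic acid and a suppressor of jasmonic acid signalling, was at 59.2 and 71.2 FPKM against 72.8 and 81.8 FPKM. The gap between the groups was smaller than the gap within either of them, and the log2 fold change was -0.29 ± 0.129 (SE, edgeR adjusted p = 0.296). The ratio of OsWRKY45 to OsWRKY13, 1.04 and 0.884 in the libraries labelled modd2 and 1.04 and 1.32 in DJ, overlapped between the groups.

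**Figure D3:**
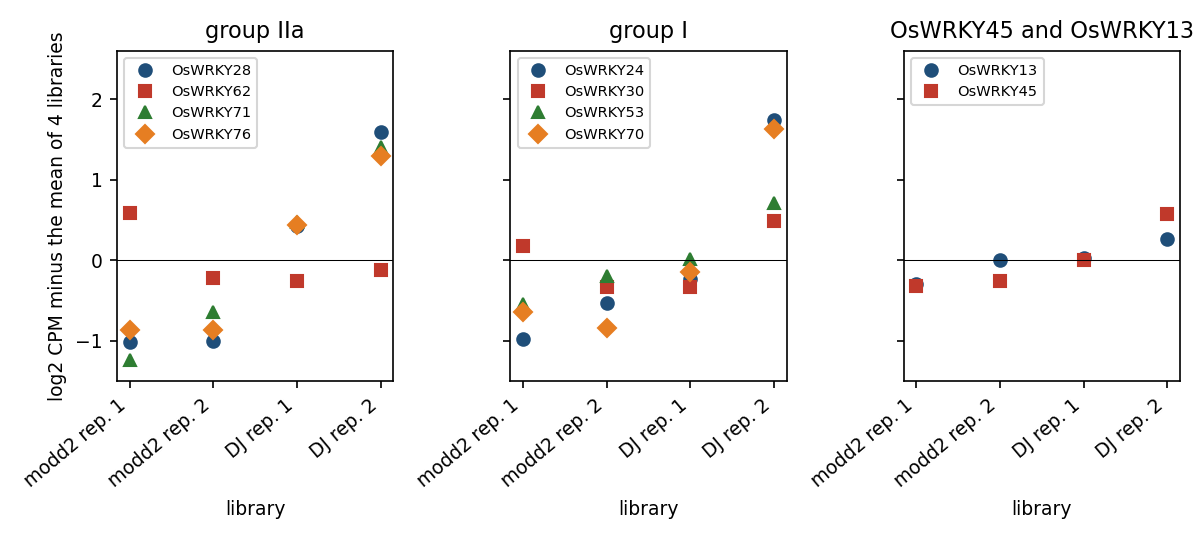
Log2 CPM (counts scaled to library size) of each WRKY gene minus its mean over the 4 libraries, in 3 panels for group IIa, group I, and OsWRKY45 with OsWRKY13. DJ replicate 2 is highest for 9 of the 10 genes, and for 31.7% of all tested genes. OsWRKY62 departs from the other group IIa genes with its highest value, 0.59, in replicate 1 labelled modd2.

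The wild type libraries differed in one direction over the 10 genes, though by little in OsWRKY62 and OsWRKY13 (log2 ratios of 0.14 and 0.23). DJ replicate 2 was above DJ replicate 1 in 10 of 10, where 50.1% of all tested genes were. The median log2 ratio of replicate 2 to replicate 1 was 0.83 for the 10 genes and 0.00 for all tested genes. OsWRKY24, OsWRKY70 and OsWRKY28 differed at least 2-fold between the DJ libraries, with log2 ratios of 1.97, 1.76 and 1.17, and 1.35% of all tested genes were at least that much higher in replicate 2. Between the libraries labelled modd2 no WRKY gene differed 2-fold, and the median absolute log2 ratio was 0.32, against 0.83 in DJ. Over all tested genes the same 2 medians were 0.16 and 0.20, as the plot of within-group ratios shows. The biological coefficient of variation that edgeR estimated for the 10 genes, its measure of spread between replicates, had a median of 20%, with 52.1% for OsWRKY24 and 39.6% for OsWRKY70, against 10.5% over all tested genes.

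**Figure D4:**
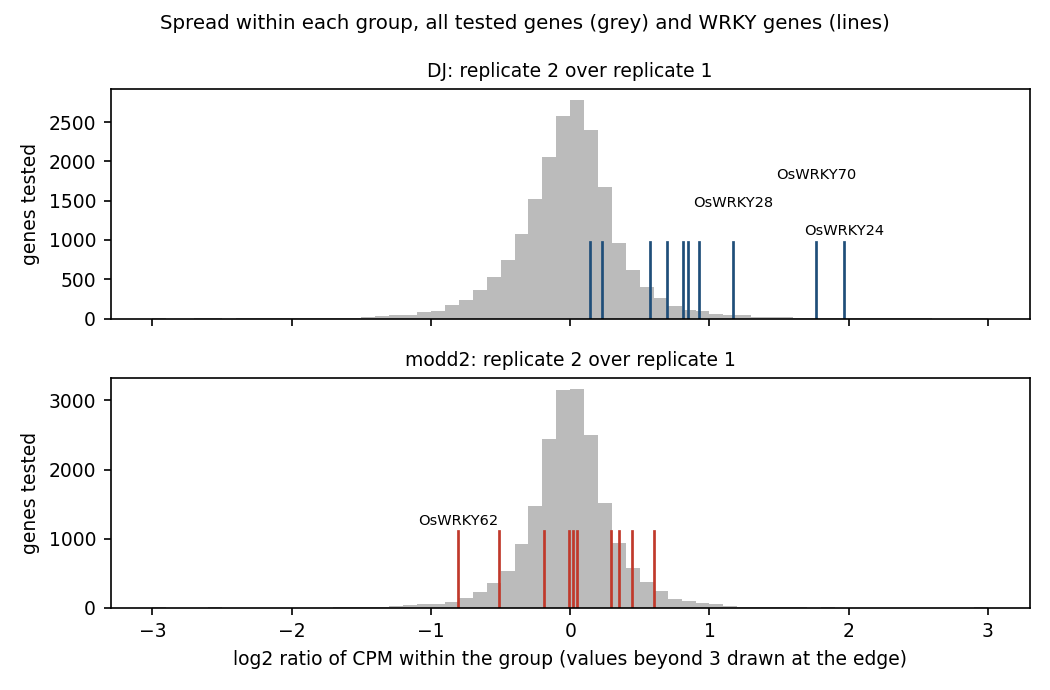
Histograms of the log2 ratio of replicate 2 to replicate 1 over all tested genes (grey), for DJ above and the libraries labelled modd2 below, with the 10 WRKY genes as lines. In DJ all 10 lines lie right of 0 and those of OsWRKY28, OsWRKY70 and OsWRKY24 are past 1, while in the libraries labelled modd2 the lines lie on both sides, from -0.81 (OsWRKY62) to 0.60 (OsWRKY71).

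The number of the 10 genes called differed with the wild type library kept. Without DJ replicate 1, 8 of the 10 were lower at an edgeR adjusted p under 0.05, with 6.31% of tested genes called lower in that fit. OsWRKY30 and OsWRKY62 were the exceptions. Without DJ replicate 2, 2 were lower, OsWRKY28 by -1.55 on the log2 scale (edgeR adjusted p = 0.0237) and OsWRKY76 by -1.31 (edgeR adjusted p = 1.31e-08), in a fit that called 1.18% of tested genes lower. In these fits the lone DJ library is assumed to vary like the libraries labelled modd2. Without replicate 1 or replicate 2 labelled modd2 edgeR called none of the 10, in fits that called 0.339% and 1.34% of tested genes lower. The log2 fold change of OsWRKY62 was -0.03 without replicate 1 labelled modd2 and 0.79, thus higher, without replicate 2. Without DJ replicate 2 the differences of OsWRKY71, OsWRKY53 and OsWRKY45 were -1.39, -0.37 and -0.29 on the log2 scale.

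**Figure D5:**
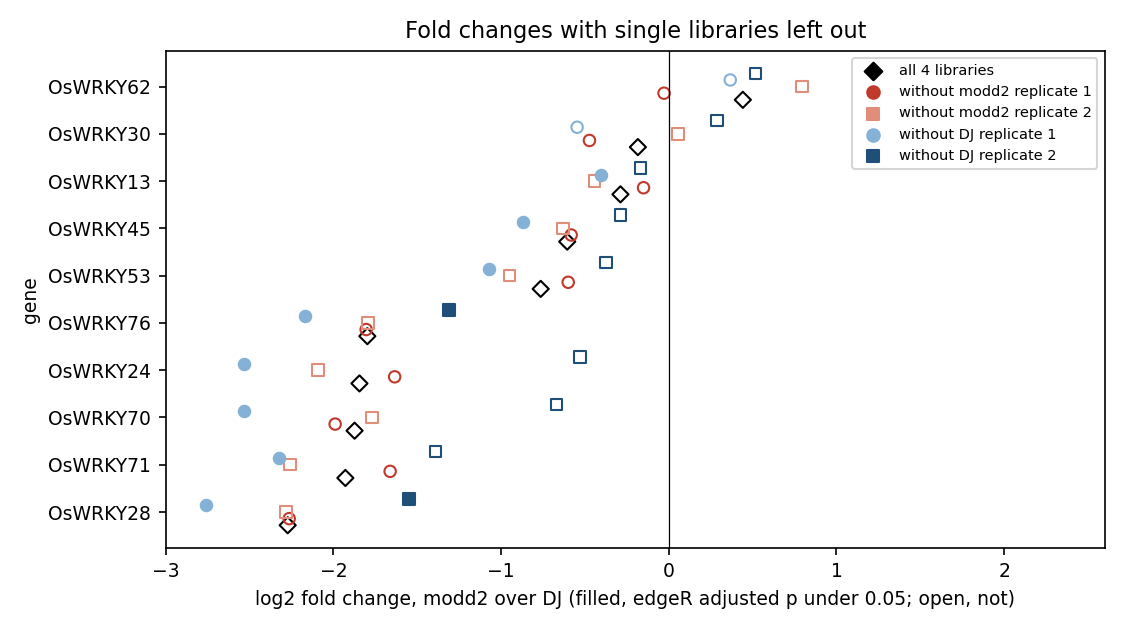
Log2 fold change of each WRKY gene with all 4 libraries and with each library left out in turn. Filled symbols passed edgeR at an adjusted p under 0.05 and open ones did not. Without DJ replicate 1, 8 genes pass, and without DJ replicate 2, OsWRKY28 and OsWRKY76 pass.

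All 11 tested green leaf loci were also highest in DJ replicate 2, with a smaller range than the WRKY genes. The root markers, of which only 2 were listed, were lowest there in sum. Centred on the mean of the 4 libraries, the average log2 level of the 10 WRKY genes was -0.51 and -0.49 in the libraries labelled modd2 and 0.04 and 0.96 in DJ replicates 1 and 2. For 11 tested green leaf loci it was -0.24 and -0.05, then -0.01 and 0.31. The summed level of the root markers was 19.1 and 16.9 FPKM in the libraries labelled modd2 and 15.4 and 11.7 FPKM in DJ. The part of tissue makeup in the WRKY differences was not tested, and in such bulk samples fewer cells of a type and less RNA per cell cannot be told apart.

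Of the wider WRKY family, 49 further loci were listed, of which 46 were measured and 31 tested. None was called in the edgeR fit reported, and the median log2 fold change was -0.19. At an unadjusted p under 0.05 there were 11, of which 8 were lower and 3 higher in the libraries labelled modd2, while 16.8% of all tested genes reached that level in either direction. In 12 of the 31 both libraries labelled modd2 lay below both DJ libraries, which is 38.7% against 25.6% of all tested genes. OsWRKY51 (LOC_Os04g21950), a partner of OsWRKY71 in repressing gibberellin responses, was at 18.7 and 20.1 FPKM in the libraries labelled modd2 and at 23.3 and 32.01 FPKM in DJ (log2 fold change -0.56 ± 0.175, SE, edgeR adjusted p = 0.156). A larger difference was that of LOC_Os05g46020, at 10.5 and 12.8 FPKM against 26.6 and 49.2 FPKM (log2 fold change -1.75, edgeR adjusted p = 0.118). Like OsWRKY71 and OsWRKY76, it passed with DESeq2 (adjusted p = 1.06e-05) and with the non-robust edgeR fit (adjusted p = 0.0407). LOC_Os03g20550 went the other way, at 8.26 and 8.58 FPKM against 4 and 3.75 FPKM (log2 fold change 1.08, edgeR adjusted p = 0.0942), and DJ replicate 2 was not its highest library. It passed in edgeR without the count filter (adjusted p = 0.0447). The 10 defence genes took 48.7 and 52.8% of the reads of all listed WRKY loci in the libraries labelled modd2, and 59.1 and 62.4% in DJ.

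Of 14 tested genes upstream of the WRKY factors, receptors, kinases and salicylic acid regulators, none was called by edgeR. Their median log2 fold change was -0.12, with 11 of 14 below 0, against 49.4% of all tested genes. At an unadjusted edgeR p under 0.05 there were 4, of which 3 were lower and 1 higher, against 16.8% of all tested genes. In 8 of the 14 (57.1%) both libraries labelled modd2 lay below both DJ libraries, as they did for 25.6% of all tested genes. The smallest adjusted p was that of a locus whose symbol the reference table does not hold, at 96.7 and 139.7 FPKM in the libraries labelled modd2 and at 190.3 and 169.5 FPKM in DJ (log2 fold change -0.65 ± 0.169, SE, edgeR adjusted p = 0.113). It passed with DESeq2 (adjusted p = 0.0165) and without replicate 2 labelled modd2 (edgeR adjusted p = 0.00162), and its counts held fractions. OsNPR1, a salicylic acid co-regulator that acts beside OsWRKY45, was at 20.9 and 19.2 FPKM in the libraries labelled modd2 and at 15.9 and 15.4 FPKM in DJ (log2 fold change 0.31, edgeR adjusted p = 0.251). For its relative OsNPR2 the log2 difference was -0.28 (edgeR adjusted p = 0.242). OsMPK3, a pathogen-responsive mitogen-activated protein kinase, was singled out after its values were seen. It was highest in DJ replicate 2, and DJ replicate 1 also lay well above both libraries labelled modd2. Its level was 20.5 and 19.96 FPKM against 38.6 and 98.3 FPKM, with DJ replicate 2 far above the rest (log2 fold change -1.81 ± 0.597, SE, edgeR adjusted p = 0.299). It did not pass with DESeq2 (adjusted p = 0.15) or with the non-robust edgeR fit (adjusted p = 0.0635). The log2 fold change of OsMPK3 was -2.36 without DJ replicate 1 and -0.94 without DJ replicate 2. Without replicate 1 or replicate 2 labelled modd2 it was -1.82 and -1.81.

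Genes of the other lists were compared with the mean profile of the 10 WRKY genes by the root mean square difference of centred log2 CPM over the 4 libraries. The closest 3 were further WRKY loci, led by LOC_Os08g29660 at a difference of 0.114, with 5.90 and 6.94 FPKM in the libraries labelled modd2 and 8.42 and 17.9 FPKM in DJ. At that distance or closer stood 32 of the 19365 tested genes, and all 10 genes themselves stood farther from their mean profile, from 0.193 for OsWRKY53 to 0.797 for OsWRKY62. Outside the family the closest was a locus of the upstream list whose symbol the reference table does not hold, at 0.236, with 21.5 and 23.1 FPKM in the libraries labelled modd2 and 38.1 and 86.4 FPKM in DJ. TIFY10A, a jasmonate-responsive JAZ repressor, followed at 0.242. Of 9 JAZ repressor genes tested, 8 had a log2 fold change below 0, against 49.4% of all tested genes, and their median was -0.95. In 7 of the 9 (77.8%) both libraries labelled modd2 lay below both DJ libraries, against 25.6% of all tested genes. The log2 fold changes of the 9 ran from -3.16 to 0.34. TIFY10A was the one gene of the lists, apart from MODD, to pass over all genes (edgeR adjusted p = 0.028), and it stood at 238.8 and 295.5 FPKM against 456.1 and 546.3 FPKM. It did not pass without replicate 1 labelled modd2 (edgeR adjusted p = 0.0679) or with limma on log2(FPKM + 1) (adjusted p = 0.102) or log2(FPKM + 0.1) (adjusted p = 0.11). A distance over 4 libraries describes these libraries alone.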

How the data were processed

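Each of the 4 libraries, 2 titled modd2 and 2 titled DJ, came with 1 table of genes. RSEM, Bowtie and BWA are listed, with neither role nor version, in the submitters' processing notes; the build is not given there. Per the file headers, the tables hold an expected count and an FPKM value per gene as deposited, with the length in bases as another deposited column; a gene missing from a table was set to 0. The members and all gene lists were chosen with earlier results of these data known. Names of OsWRKY24, OsWRKY62, OsWRKY71 and OsWRKY76 stand in the reference gene table (ASM3414082v1) on the chromosome of the identifier. The table matched 0 identifiers directly, the other 6 names follow the usual rice numbering, and 4 genes of other lists whose symbol it places on another chromosome were dropped. Other genes are named where the table holds the symbol, otherwise by at most 4 identifiers. They were drawn from those called, those with the smallest adjusted p (5 for WRKY loci, 3 elsewhere) and the 3 closest profiles. Not all of those are described. MODD, the tissue markers, OsMPK3 and OsCPS4 were named apart from that rule.

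Expected counts were rounded and analysed in edgeR (version 4.0.16, under R 4.3.3; filterByExpr with a minimum count of 10 and a minimum total of 15, TMM factors, robust quasi-likelihood F test, no covariate, Benjamini-Hochberg adjustment over all 19365 genes, threshold 0.05). The SE of a log2 fold change is its size over the square root of F. The 2 libraries of a group differed by more than 1 library counted again would (chi-square per degree of freedom 2.54 for modd2 and 4.5 for DJ), which does not show that they come from separate plants. Other settings tried were a non-robust fit, DESeq2 1.42.0, upper-quartile and RLE factors, no count filter, a mean of at least 1 FPKM, limma 3.58.1 on log2(FPKM + 1) and log2(FPKM + 0.1), a replicate block, and each library left out.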

Additional observations from a re-analysis of the deposited data

How the results depend on the processing

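The number of genes called over the whole table was 162 (97 higher, 65 lower), and it was 102 with upper-quartile factors, 339 with DESeq2, 764 without the count filter, 870 with the replicate number as a block, and 0 with limma on log2(FPKM + 1) or log2(FPKM + 0.1), where 3093 and 3062 genes had an unadjusted p under 0.05. With single libraries left out it ran from 144 to 2483. Of the 10 WRKY genes, 0 were called, against 2 with DESeq2 and 2 with the non-robust fit (OsWRKY71 and OsWRKY76 both times), 1 without the count filter (OsWRKY28), 5 with the replicate block (OsWRKY28, OsWRKY45, OsWRKY53, OsWRKY71 and OsWRKY76; 2.55% of all genes lower) and 0 to 8 with single libraries left out. The cause was not tested. The block has little ground in the data, since deviations of equally numbered libraries had a correlation of 0.0126 and the labels do not pair them. Over the 13 alternatives, OsWRKY76 ran from -2.17 to -1.31 on the log2 scale (adjusted p from 4.25e-21 to 0.681), and OsWRKY28 from -2.76 to -1.55. With single libraries left out the log2 values ran from -0.028 to 0.79 for OsWRKY62, -0.55 to 0.29 for OsWRKY30, -0.12 to 0.082 for the panicle marker OsMADS14 and -0.68 to 2.85 for OsCPS4, and so turned sign. OsMADS14 (-0.01 in the fit reported) was at 0.023 and 0.025 with limma on log2(FPKM + 1) and log2(FPKM + 0.1). OsWRKY28 and OsWRKY70 had as few as 13 and 11 reads in a library, which limits their precision.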

Other observations

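Defence outputs that lie downstream of several of these WRKY factors differed in layout from most of the factors in the libraries labelled modd2. Of 6 tested, 5 were highest in replicate 1 labelled modd2, the library in which OsWRKY62 was highest too, as were 27.5% of all tested genes. Within DJ they resembled the factors. DJ replicate 2 was above DJ replicate 1 in 5 of the 6 (50.1% of all tested genes), with a median log2 ratio of 1.35. PBZ1 (LOC_Os12g36880), a pathogenesis-related protein gene of the PR10 class, was at 37.5 and 12.5 FPKM in the libraries labelled modd2 and at 7.13 and 15.8 FPKM in DJ (log2 fold change 1.06 ± 0.773, SE, edgeR adjusted p = 0.582). OsCPS4, a cyclase gene of momilactone synthesis singled out after its values were seen, was at 8.59 and 1.02 FPKM against 0.60 and 2.30 FPKM (edgeR adjusted p = 0.639). In both genes the spread within the group labelled modd2 was larger than the difference between the groups. OsNAC4 (LOC_Os01g60020), a transcription factor gene of hypersensitive cell death, was the exception and had the layout of the WRKY genes, at 5.39 and 8.53 FPKM against 13.4 and 16.3 FPKM (log2 fold change -1.13 ± 0.245, SE, edgeR adjusted p = 0.066).

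OsWRKY30, OsWRKY62 and OsWRKY71 have 4, 2 and 4 annotated transcripts in the tables, and their lengths, weighted by how RSEM split the reads among transcripts, differed between libraries. For OsWRKY71 the length was 1585.6 and 1640.4 bases in the libraries labelled modd2 and 1656.2 and 1640.8 bases in DJ. For OsWRKY62 it was 1416.8 and 1415.3 against 1463 and 1434.1 bases, with both DJ values above both others. The tables give no count per transcript.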
